A study of Homo sapiens with 6 samples.

Results

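The nuclear-encoded subunits of the respiratory chain were followed by RNA-seq in JJN3, a human multiple myeloma cell line, that is, a line of malignant plasma cells. They were taken as the protein-coding genes whose symbol starts with NDUFA, NDUFB, NDUFC, NDUFS, NDUFV, UQCR, COX4, COX5, COX6, COX7, COX8 or ATP5, with CYC1 and SDHA, SDHB, SDHC and SDHD added and the NDUFAF assembly factors left out. They also had to average at least 1 CPM (fragments counted, scaled to the library total) over the 6 libraries. This gave 81 of the 60728 genes counted: 38 of complex I, 4 of complex II, 10 of complex III, 11 of complex IV and 18 of complex V. The cells, of a genotype given as WT, received the vehicle DMSO, WNK463 for 2 h or WNK463 for 6 h, with 2 libraries in each of the 3 groups. WNK463 blocks the WNK kinases, regulators of ion transport by cation-chloride cotransporters. Its dose is given as 5 µM with the samples and as 1 µM in the series design, so the dose is uncertain. No collection time is given for the DMSO samples, which the series design places at 0 h, and it is not stated that replicates came from separate cultures. The p-values therefore reflect the spread among these 6 libraries, which may be technical. That spread was estimated largely from all genes together, so it is not each gene's own. No DMSO sample is stated for 2 h or 6 h, so effects of WNK463 and of time in culture cannot be told apart.

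The respiratory chain of the inner mitochondrial membrane passes electrons from NADH and succinate to oxygen and uses the released energy to pump protons. Complex I takes electrons from NADH, complex II takes them from succinate, complex III passes them from ubiquinone to cytochrome c, and complex IV hands them to oxygen. Complex V, the ATP synthase, makes ATP as protons flow back. Most subunits are encoded in the nucleus and imported, and a small core of complexes I, III, IV and V is encoded by mitochondrial DNA (mtDNA).

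Counts assigned to genes came to between 18013790 and 24002291 per library, so that 3 counts correspond to between 0.125 and 0.167 CPM. The share of all counts taken by the subunit genes was 0.886% and 0.838% with DMSO, 0.863% and 0.848% after 2 h, and 0.800% and 0.811% after 6 h. All 8 plasma cell and myeloma markers examined averaged at least 1 CPM (17.7 to 621 CPM), as did the 3 markers of MAF-type myeloma, whose summed level was 941 to 963 CPM in DMSO, 1201 to 1208 CPM at 2 h and 1073 to 1112 CPM at 6 h. Of the 5 T cell markers, CD3D and CD3G had no count and TRAC averaged 2.55 CPM, and the list summed to 1.92 to 2.55 CPM in DMSO, 1.83 to 2.24 CPM at 2 h and 3.48 to 4.83 CPM at 6 h. Of the 4 myeloid markers, CSF1R averaged over 1 CPM (1.09), and the list summed to 1.03 to 1.72 CPM in DMSO, 1.33 to 1.39 CPM at 2 h and 1.61 to 1.95 CPM at 6 h. No erythroid or fibroblast marker averaged over 0.312 CPM, and the erythroid HBB had no count. Of the 4 epithelial markers, EPCAM, KRT18 and CDH1 exceeded 1 CPM, and the list summed to 102 CPM in both DMSO libraries, 123 to 126 CPM at 2 h and 122 to 129 CPM at 6 h. The part of these marker shifts in the results was not tested.

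The subunit genes differed widely in level. Levels per kilobase of exon allow only a rough comparison between genes. The length covers all annotated exons, and fragments over exons of more than 1 gene were not assigned. On this scale ATP5F1B, the catalytic beta subunit of complex V, was the highest at 473 CPM per kilobase over all libraries. NDUFS5, an accessory subunit of complex I, followed at 202 and UQCRH, the hinge protein of complex III, at 174 CPM per kilobase. The lowest were NDUFA11 at 1.28, NDUFA4L2 at 0.491 and NDUFA13 at 0.452 CPM per kilobase. These genes share 12.1%, 1.18% and 21.0% of their exonic length with other genes, so the low places of NDUFA11 and NDUFA13 are uncertain. The abundant ATP5F1B had 1018 and 1044 CPM in DMSO, 1116 and 1107 CPM at 2 h, and 1016 and 1053 CPM at 6 h, so that its 6 h and DMSO libraries overlapped. Within complex II the level of SDHA per kilobase, 6.19, was below those of SDHB, SDHC and SDHD, at 46.0, 35.6 and 33.7 CPM per kilobase. SDHA shares 21.6% of its 8765 exonic bases with another gene, and SDHD 11.4% of 2790, so this order is uncertain.

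**Figure D1:**
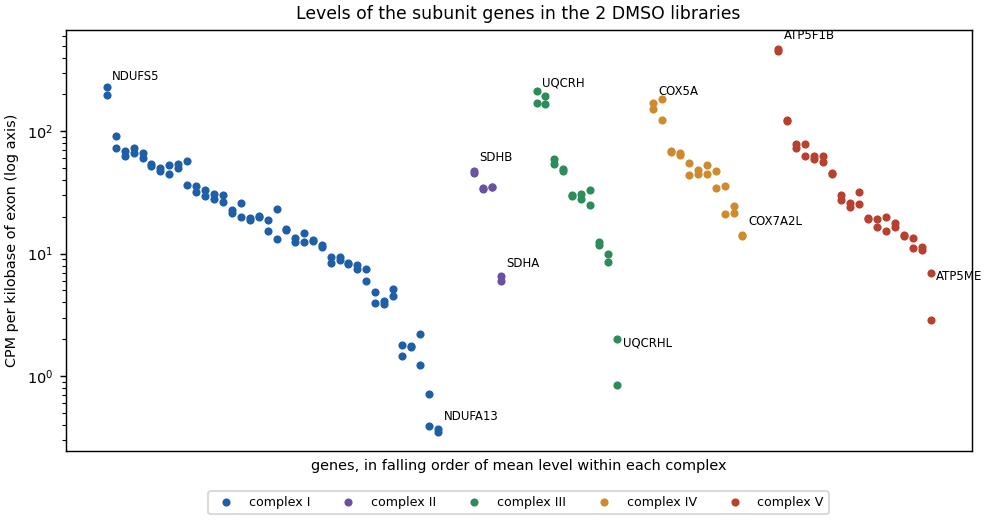
Level of each subunit gene in the 2 DMSO libraries, in CPM per kilobase of exon on a log axis, with 2 points per gene and the genes of each complex in falling order of their mean over all 6 libraries. The highest and lowest gene of each complex are named, and ATP5F1B lies above all others.

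Tissue-restricted isoforms were at or near 0 in these cells. Of 91 protein-coding candidates by symbol, 10 averaged under 1 CPM. Among these, COX4I2, an isoform known from lung and low oxygen, and COX6A2, the heart and muscle isoform, had no count in any library, which at this depth allows up to 0.125 to 0.167 CPM. COX7A1, another muscle isoform, averaged 0.102 CPM, COX6B2, known from testis, 0.0716 CPM, and COX8C, also known from testis, 0.0404 CPM. Their widely expressed counterparts were all present, with COX4I1 at 305, COX6A1 at 35.1, COX7A2 at 91.2, COX6B1 at 68.2 and COX8A at 69.3 CPM on average. The candidates nearest to the limit were NDUFA13 at 1.22 and NDUFA4L2 at 1.37 CPM above it, and NDUFA7 at 0.567 and the read-through gene ATP5MF-PTCD1 at 0.122 CPM below it. Fragments lying over exons of 2 genes were not assigned, and 42 of the 81 genes share part of their exonic length with another gene, 30 of them over 10% and at most 61.3% (ATP5ME with the antisense gene MYL5). The values of such genes leave out the fragments of the shared parts.

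After 6 h of WNK463 many subunit genes were lower than in DMSO, by modest amounts. Genes are called here where edgeR's quasi-likelihood test gave an adjusted p (Benjamini-Hochberg) below 0.05 over the 15548 genes that passed the filter on low counts, which all 81 subunit genes did. By this rule 29 subunit genes were lower and 2 were higher at 6 h, where 18.6% of all tested genes were lower and 18.0% higher. The 29 make up 35.8% of the subunit genes. Since calls depend on abundance, the comparison was also made at a mean of at least 10 CPM, where 27 of 74 subunit genes were lower and 1 was higher, against 26.8% lower and 23.9% higher among all 9056 such genes. The median log2 change of the 81 genes was −0.17, and that of all tested genes −0.0050. Among the 29, the change ran between −45.0% and −13.9%, with 6 genes over 30% and 12 genes at or under 20%. Both 6 h libraries lay below both DMSO libraries in 52 of the 81 genes, and above them in 7, where 33.1% and 32.7% of all tested genes did so. The summed level of the 81 genes was 7880 ± 95.1 CPM at 6 h and 8636 ± 293 CPM in DMSO (SD, n = 2 each), which had decreased by 8.76%. In these bulk samples, and on a scale relative to all RNA, fewer cells of a type and less RNA per cell cannot be told apart.

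The number of genes called and the size of the change depended on the libraries. DMSO replicate 1 lay above DMSO replicate 2 in 58 of the 81 genes (71.6%; 50.6% of all tested genes), with a median log2 difference of 0.11 (all tested genes 0.0046). Without DMSO replicate 1 the median log2 change at 6 h was −0.13 (all tested genes 0.01). Without DMSO replicate 2 it was −0.26 (all tested genes 0.0067). Without 6 h replicate 1 or 2 it was −0.18 and −0.20 (all tested genes −0.01 and −0.02). A set of 9 genes was called lower at 6 h whichever library was left out: NDUFA8, NDUFAB1 and NDUFS6 of complex I, CYC1 and UQCR11 of complex III, and ATP5MC1, ATP5MC2, ATP5MF and ATP5PB of complex V. The share of all tested genes that kept a lower call in this way was not determined, so these 9 genes have no background beside them. Transcript length moved with the change. The exonic length had a median of 2324 bases in the subunit genes and 4614 bases in all tested genes. Shorter subunit genes had the more negative log2 change (Spearman's rho 0.42 across 81 genes, which share the same libraries). Length was also related to the difference of DMSO replicate 1 from replicate 2 (rho −0.37). In a fit corrected for length and GC content, 35 subunit genes were called lower and their median log2 change was −0.18. That fit called 21.9% of all tested genes lower, and their median log2 change was −0.03.

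In complex I, 13 of 38 genes (34.2%) were lower and 2 (5.26%) were higher at 6 h, with a median log2 change of −0.18. Of all tested genes 18.6% were lower and 18.0% higher. At a mean of at least 10 CPM these shares were 26.8% and 23.9%. NDUFAB1, the mitochondrial acyl carrier protein that is also a complex I subunit (chromosome 16, 23581014 to 23596316, minus strand, hg38), had 80.3 and 79.9 CPM at 6 h, against 103 and 112 CPM in DMSO. Its 2 h libraries, at 99.1 and 104 CPM, lay near the DMSO libraries, and both 6 h libraries lay clearly below all others (log2 change −0.43 ± 0.08 SE, adjusted p = 3.4e-05). NDUFS6, an accessory subunit that carries a zinc ion, had 46.0 and 56.2 CPM at 6 h, against 80.4 and 65.3 CPM in DMSO. The groups did not overlap although the replicates differed (−0.51 ± 0.10, adjusted p = 7.9e-05). NDUFA8, an accessory subunit on the side of the intermembrane space, had 15.5 and 14.8 CPM at 6 h, against 24.4 and 21.1 CPM in DMSO (−0.59 ± 0.15, adjusted p = 0.0012).

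Of the 13 lower genes 12 were accessory subunits, 38.7% of the 31 in the set. Of the 7 core subunits, which have counterparts in the bacterial enzyme, 1 (14.3%) was lower and 2 (28.6%) were higher. The background was 18.6% lower and 18.0% higher of all tested genes, and the difference between core and accessory subunits was not tested. The core subunit that was lower was NDUFS3 (−0.38 ± 0.11, adjusted p = 0.0049), which lost its call without 6 h replicate 1 (−0.36, adjusted p = 0.061). The largest decrease was that of NDUFA11, a subunit of the membrane arm, which had 4.48 and 4.53 CPM at 6 h, against 10.6 and 5.91 CPM in DMSO. It rested on DMSO replicate 1, since its log2 change of −0.86 became −0.39 without that library (adjusted p = 0.34). NDUFA1, also of the membrane arm, was alike in this, with 12.1 and 12.6 CPM at 6 h, against 23.9 and 15.4 CPM in DMSO; −0.67 became −0.32 (adjusted p = 0.218). The other called genes were NDUFB2, NDUFB3, NDUFB7, NDUFB8, NDUFB9, NDUFS4 and NDUFS5, between −0.62 and −0.23, and each lost its call when 1 library or another was left out. NDUFB2 and NDUFB7 lost it without 6 h replicate 1 (−0.32 and −0.40, adjusted p = 0.0672 and 0.0539), and NDUFB3 without that library or DMSO replicate 1 (−0.23 and −0.20, adjusted p = 0.426 and 0.45). NDUFB8, NDUFB9, NDUFS4 and NDUFS5 lost it without DMSO replicate 1 (−0.53, −0.15, −0.37 and −0.17) or either 6 h library. NDUFB3 also lost its call with scaling by library size alone or by upper quartiles, with no filter, with DESeq2 and with voom, NDUFB8 with DESeq2 and NDUFS4 with no filter.

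Among the genes called higher at 6 h was a core subunit of complex I. NDUFV2, an iron-sulfur subunit of the NADH-oxidising arm (chromosome 18, 9102630 to 9134345, plus strand, hg38), had 10.0 and 7.89 CPM at 6 h, against 4.87 and 3.97 CPM in DMSO. Its 2 h libraries, at 7.22 and 4.78 CPM, lay between these values or among the DMSO libraries. NDUFV2 was 2.03-fold higher at 6 h (log2 change 1.02 ± 0.24 SE, adjusted p = 0.00070), and its call held whichever library was left out, with a log2 change between 0.84 and 1.18. Its assigned counts are low. It shares 28.4% of its exonic length with an unnamed gene on the same strand, to which 1 fragment was assigned in all libraries. Fragments of the shared part were not counted, so the level and the change of the whole transcript are uncertain. The counting ignored strand. The antisense gene NDUFV2-AS1, which shares no exonic length with NDUFV2, had 6.64 and 3.51 CPM at 6 h, against 3.10 and 5.19 CPM in DMSO, with overlap (0.28 ± 0.30, adjusted p = 0.51). The pseudogene NDUFV2P1 had 0.823 and 1.12 CPM at 6 h, against 0.719 and 0.330 CPM in DMSO (0.90 ± 0.78, adjusted p = 0.40).

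Complex II, succinate dehydrogenase, is shared with the tricarboxylic acid (TCA) cycle and has no mtDNA-encoded subunit. Of its 4 genes 1 (25%) was called lower at 6 h. The share of all tested genes was 18.6%, or 26.8% at a mean of at least 10 CPM. The gene called was SDHD, a membrane anchor. It had 89.9 and 79.0 CPM at 6 h, against 97.7 and 98.5 CPM in DMSO. The 6 h libraries lay below the DMSO libraries, but by a small margin for replicate 1 (log2 change −0.22 ± 0.08 SE, adjusted p = 0.039), and the call held in 9 of 17 alternative fits. It was lost without 6 h replicate 2 (−0.12, adjusted p = 0.47), without 2 h replicate 1 or 2 (adjusted p = 0.0569 and 0.0573), with scaling by library size alone or by upper quartiles, with no filter, with DESeq2 and with only the 2 groups compared. SDHB, the iron-sulfur subunit, had 104 and 94.3 CPM at 6 h, against 107 and 110 CPM in DMSO (−0.14 ± 0.08, adjusted p = 0.18). SDHA, the flavoprotein, had 55.0 and 52.5 CPM at 6 h, against 58.1 and 52.8 CPM in DMSO. SDHC, the other anchor, had 129 and 134 CPM at 6 h, against 126 and 128 CPM in DMSO. Neither SDHA nor SDHC passed the test, and the 95% intervals of their log2 changes ran between −0.24 and 0.15 and between −0.10 and 0.19.

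Complex III had 5 of 10 genes (50%) lower at 6 h and a median log2 change of −0.21. Of all tested genes 18.6% were lower, or 26.8% of those with a mean of at least 10 CPM. CYC1, the cytochrome c1 subunit that passes electrons to cytochrome c, had 262 and 279 CPM at 6 h, against 383 and 329 CPM in DMSO. Its 2 h libraries held 354 and 352 CPM, within the DMSO range, so the 6 h libraries stood below all other libraries (log2 change −0.39 ± 0.06 SE, adjusted p = 2.6e-06). UQCR11, a small accessory subunit (chromosome 19, 1597169 to 1605473, minus strand, hg38), had 16.8 and 18.2 CPM at 6 h, against 26.8 and 24.99 CPM in DMSO, again with no overlap (−0.56 ± 0.13, adjusted p = 0.00065). UQCRH had 204 and 224 CPM at 6 h, against 284 and 228 CPM in DMSO. Its call (−0.26 ± 0.08, adjusted p = 0.0061) was lost without DMSO replicate 1, where the log2 change was −0.09 (adjusted p = 0.284), without 6 h replicate 1 (−0.19, adjusted p = 0.154) and with DESeq2. UQCRFS1, the Rieske iron-sulfur protein, was lower by −0.24 ± 0.08 and UQCR10 by −0.33 ± 0.13 on the log2 scale (adjusted p = 0.017 and 0.048), and both lost the call without 6 h replicate 1 (−0.28 and −0.35) or 2 (−0.20 and −0.31). UQCR10 also lost it without DMSO replicate 1, where its log2 change was −0.11 (adjusted p = 0.62). In all, the UQCR10 call held in 7 of 17 alternative fits, and the others that lost it were scaling by DESeq2 size factors, by library size alone or by upper quartiles, no filter, DESeq2, voom and only the 2 groups compared. The core proteins UQCRC1 (0.07 ± 0.07) and UQCRC2 (−0.08 ± 0.06) did not pass the test, with 95% intervals of −0.08 to 0.21 and −0.21 to 0.05. UQCRHL, an intronless copy of UQCRH, had 2.83 CPM on average and shares near-identical sequence with it, so its level is uncertain.

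Complex IV had 2 of 11 genes lower at 6 h, and a median log2 change of −0.16. This share, 18.2%, was near the 18.6% of all tested genes and under the 26.8% of those with a mean of at least 10 CPM, which all 11 had. COX5A, an accessory subunit facing the matrix, had 170 and 180 CPM at 6 h, against 225 and 202 CPM in DMSO. No 6 h library reached the DMSO libraries (−0.29 ± 0.07 SE, adjusted p = 0.00099), while without 6 h replicate 1 the adjusted p was 0.0538 (−0.24). COX7B, a small accessory subunit, had 54.2 and 58.0 CPM at 6 h, against 64.7 and 73.6 CPM in DMSO (−0.30 ± 0.10, adjusted p = 0.010), and was not called without 6 h replicate 1 (−0.25, adjusted p = 0.144) or DMSO replicate 2 (−0.21, adjusted p = 0.119). The widely expressed isoforms did not pass the test. COX4I1 had 281 and 291 CPM at 6 h, against 323 and 306 CPM in DMSO, without overlap (−0.14 ± 0.06, adjusted p = 0.072). COX6A1 had 31.8 and 31.5 CPM at 6 h, against 48.1 and 28.4 CPM in DMSO, where the 2 DMSO libraries lay on either side of the 6 h libraries. COX8A showed the same arrangement, with 61.0 and 72.3 CPM at 6 h, against 90.3 and 60.5 CPM in DMSO. COX6B1 had 63.5 and 64.8 CPM at 6 h, against 75.2 and 59.7 CPM in DMSO, and COX7A2 had 87.0 and 93.0 CPM at 6 h, against 92.3 and 85.8 CPM in DMSO. COX7A2L, known as an assembly factor of supercomplexes of complexes III and IV, had 71.8 and 69.1 CPM at 6 h, against 78.4 and 79.3 CPM in DMSO (−0.16 ± 0.09, adjusted p = 0.14). NDUFA4, counted with complex I by its symbol but known as a subunit of complex IV, had 180 and 176 CPM at 6 h, against 186 and 181 CPM in DMSO (−0.04 ± 0.07, adjusted p = 0.66). Its paralogue NDUFA4L2, a gene known to be induced by low oxygen, had 1.29 and 0.763 CPM at 6 h, against 1.99 and 1.09 CPM in DMSO, with overlapping groups.

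Complex V had 8 of 18 genes (44.4%) lower at 6 h and a median log2 change of −0.22. The share of all tested genes was 18.6%, or 26.8% at a mean of at least 10 CPM. ATP5MF, the f subunit in the membrane part (chromosome 7, 99448475 to 99466186, minus strand, hg38), had 34.2 and 37.8 CPM at 6 h, against 67.7 and 54.3 CPM in DMSO. It fell by 41.0% (−0.76 ± 0.12 SE, adjusted p = 6.3e-07). ATP5PB, the b subunit of the peripheral stalk, had 309 and 313 CPM at 6 h, against 390 and 382 CPM in DMSO. Its replicates differed little, and its log2 change was −0.31 ± 0.06 (adjusted p = 2.8e-05). The 3 genes ATP5MC1, ATP5MC2 and ATP5MC3 are known to encode the same mature c subunit of the rotor ring. ATP5MC1 had 45.8 and 48.2 CPM at 6 h, against 68.0 and 62.5 CPM in DMSO (−0.47 ± 0.09, adjusted p = 7.4e-05). ATP5MC2 had 144 and 145 CPM at 6 h, against 178 and 174 CPM in DMSO (−0.28 ± 0.07, adjusted p = 0.00097). ATP5MC3 had 99.5 and 106 CPM at 6 h, against 131 and 112 CPM in DMSO (−0.24 ± 0.08, adjusted p = 0.015). All 3 were thus lower without overlap, although ATP5MC3 lost its call without DMSO replicate 1 (−0.13, adjusted p = 0.198) or 6 h replicate 1 (−0.20, adjusted p = 0.2).

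The alpha and beta subunits of the catalytic head of complex V had intervals around no change. ATP5F1A, the alpha subunit, had 847 and 827 CPM at 6 h, against 800 and 857 CPM in DMSO, with overlap (0.01 ± 0.05). For ATP5F1B, the beta subunit, the log2 change at 6 h was 0.00 ± 0.05, with a 95% interval of −0.10 to 0.10. Of the 3 genes of the central stalk below the head, ATP5F1D (delta) was lower by −0.34 ± 0.08 and ATP5F1E (epsilon) by −0.30 ± 0.10 on the log2 scale, with adjusted p values of 0.00063 and 0.013. Both lost the call without DMSO replicate 1 (−0.16 and −0.17, adjusted p = 0.061 and 0.227), and ATP5F1E also without 6 h replicate 1 (−0.27, adjusted p = 0.139). ATP5F1C (gamma), the other stalk gene, had 120 and 127 CPM at 6 h, against 129 and 145 CPM in DMSO, and did not pass the test (−0.15 ± 0.07, adjusted p = 0.13). ATP5MJ, a small membrane subunit, was lower by −0.31 ± 0.11 (adjusted p = 0.027) and lost its call without DMSO replicate 2 or either 6 h library (−0.33 to −0.28, adjusted p = 0.101 to 0.161), with scaling by library size alone and with no filter. ATP5IF1, the inhibitor that holds back ATP hydrolysis by complex V, had 35.5 and 36.8 CPM at 6 h, against 44.3 and 33.8 CPM in DMSO, and did not pass the test (−0.11 ± 0.12, adjusted p = 0.51). Summed over its genes, complex V was 3129 ± 26.9 CPM at 6 h and 3382 ± 7.16 CPM in DMSO, complex III was 1195 ± 34.6 CPM at 6 h and 1359 ± 83.1 CPM in DMSO, and complex I was 2050 ± 3.99 CPM at 6 h and 2236 ± 101 CPM in DMSO (SD, n = 2 each). Complex IV summed to 1138 ± 42.4 CPM at 6 h and 1271 ± 103 CPM in DMSO, and complex II to 368 ± 12.7 CPM at 6 h and 389 ± 1.02 CPM in DMSO. The sum decreased by 7.48% for complex V; it decreased by 12.02% for complex III, decreased by 8.31% for complex I, decreased by 10.5% for complex IV and decreased by 5.37% for complex II. With 2 libraries a group an exact permutation test cannot go below p = 0.333, so the sums were not tested.

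**Figure D2:**
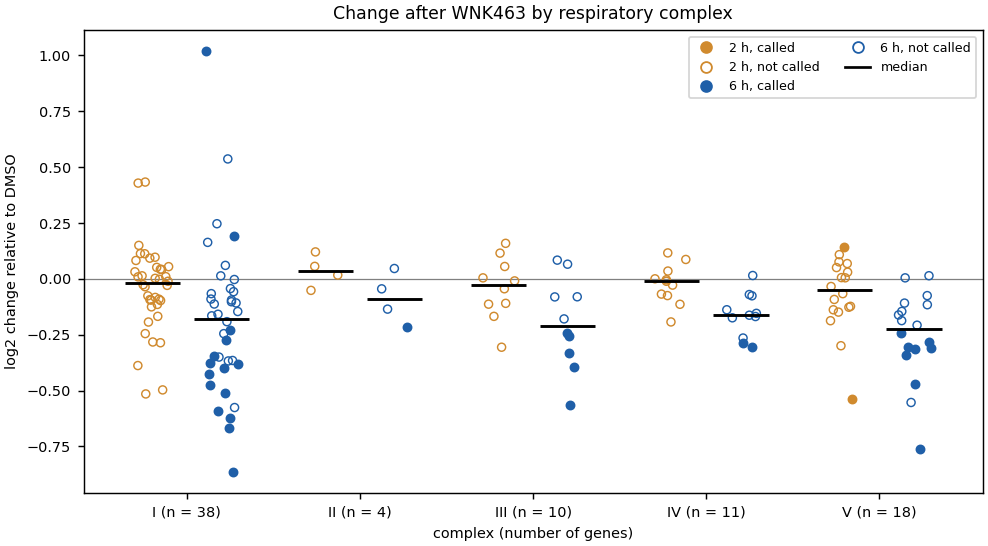
Log2 change of each subunit gene relative to DMSO at 2 h and at 6 h, by complex, with filled points for genes called at an adjusted p under 0.05 and a bar at the median. The 6 h medians lie between −0.22 and −0.09, and the 2 h medians between −0.05 and 0.04.

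**Figure D3:**
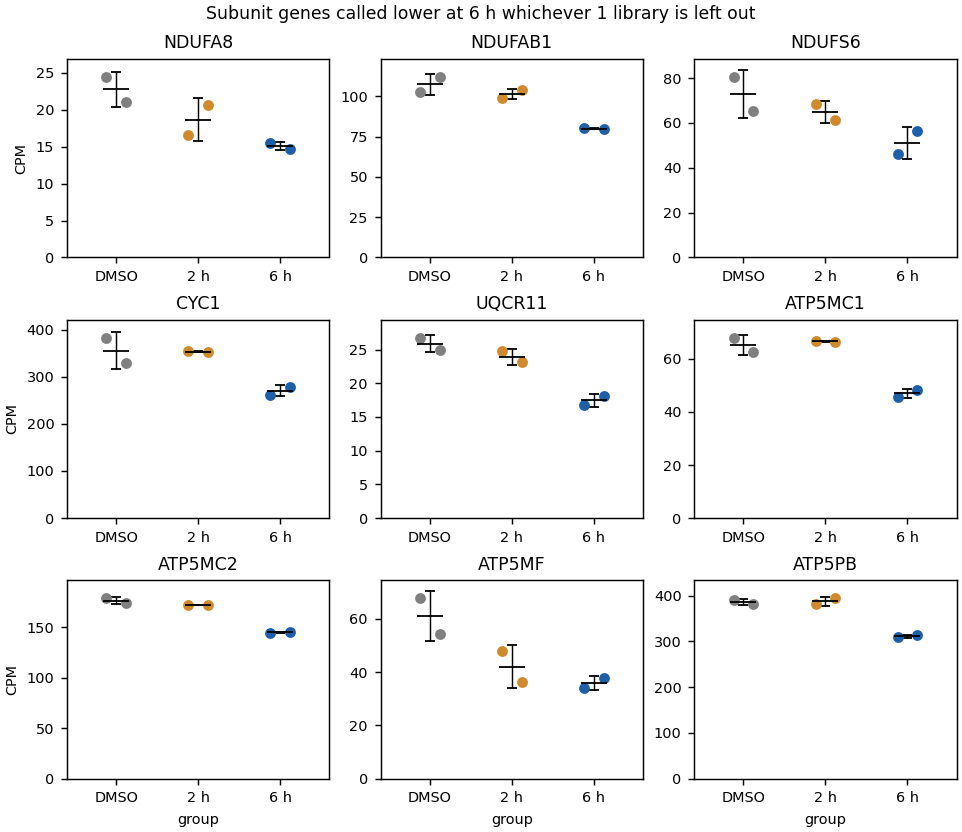
CPM in each library of the 9 subunit genes called lower at 6 h whichever library was left out, with the mean and SD of the 2 libraries of DMSO, 2 h and 6 h. In all 9 genes both 6 h points lie below both DMSO points, and in ATP5MF and NDUFA8 a 2 h library lies near the 6 h level.

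At 2 h the subunit genes as a set were close to DMSO. With 1 gene higher and 1 lower of 81, where 8.68% of all tested genes were higher and 8.32% lower, the median log2 change was −0.01, and that of all tested genes −0.0049. Both called genes belong to complex V. ATP5MF had 47.8 and 36.4 CPM at 2 h, against 67.7 and 54.3 CPM in DMSO, and so fell by 31.1% at this time already (−0.54 ± 0.11 SE, adjusted p = 0.00048). The call was lost without 2 h replicate 2 (−0.35, adjusted p = 0.0927). ATP5F1A was higher, with 908 and 922 CPM at 2 h, against 800 and 857 CPM in DMSO (0.14 ± 0.05, adjusted p = 0.049), a call close to the threshold that was lost when any library but DMSO replicate 2 was left out and in 5 of the 11 other alternative fits. At a mean of at least 10 CPM, 11.9% of all tested genes were higher and 11.4% lower. Both 2 h libraries lay below both DMSO libraries in 13 subunit genes and above them in 12, where 27.4% and 27.1% of all tested genes did so. In 70 of the 81 genes the 95% interval of the 2 h log2 change lay within −0.5 and 0.5. The summed level of all 81 genes was 8761 ± 95.2 CPM at 2 h and 8636 ± 293 CPM in DMSO (SD, n = 2 each), higher by 1.45%.

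Between the times, 16 subunit genes were lower and 1 was higher at 6 h than at 2 h, where 13.1% of all tested genes were lower and 11.1% higher. At a mean of at least 10 CPM the background was 20.7% lower and 15.5% higher, with 16 (21.6%) and 1 (1.35%) of 74 subunit genes, so that the share called lower was near the background at this abundance. Both 6 h libraries lay below both 2 h libraries in 49 subunit genes and above them in 3, where 30.2% and 31.8% of all tested genes did so. The DMSO libraries enter this comparison through the filter, the scaling and the estimate of the spread. The median log2 change was −0.15 (all tested genes 0.01). ATP5MC1 had the largest decrease of the called genes, with 45.8 and 48.2 CPM at 6 h, against 66.8 and 66.3 CPM at 2 h (−0.50, adjusted p = 5.2e-05). CYC1 followed the same course, with 262 and 279 CPM at 6 h, against 354 and 352 CPM at 2 h (−0.38, adjusted p = 8.0e-06), as did ATP5PB, with 309 and 313 CPM at 6 h, against 381 and 394 CPM at 2 h (−0.32, adjusted p = 4.0e-05). NDUFAB1 (−0.34, adjusted p = 0.0011) and ATP5F1D (−0.41, adjusted p = 9.7e-05) completed the 5 genes whose call held whichever library was left out. For all tested genes, the share whose call held in this way was not determined. ATP5MF, lower at both times than in DMSO, was not called between them (−0.22, adjusted p = 0.18). NDUFV3, an accessory subunit of the NADH-oxidising arm, was the gene called higher, with 30.8 and 29.5 CPM at 6 h, against 25.2 and 22.5 CPM at 2 h (0.34, adjusted p = 0.036), and it lost the call without each of the 4 libraries compared in turn (0.26 to 0.42, adjusted p = 0.0605 to 0.316), with no filter and with DESeq2. The number called lower depended on which library was left out, and the median log2 change then ran between −0.18 and −0.13.

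The promoters of respiratory genes are known for sites of the transcription factors NRF1 (nuclear respiratory factor 1) and GABP, an ETS-family factor. The window of 300 bases from 250 before to 50 after the RefSeq gene start (GRCh38.p14) was available for 65 of the 81 genes and was searched on both strands for fixed letters. The NRF1 motif (GCGC, any base, then TGCGC) was in 24.6% of the subunit windows and in 6.28% of the 27305 windows of all genes. The ETS motif CCGGAAGT was in 15.4% of the subunit windows and 4.44% of all windows, and the YY1 motif (AAGATG, then GCGG) in 10.8% and 1.28%. The ERR motif TCAAGGTCA was in 1.54% and 0.359%, and the E-box CACGTG, bound by MYC and MAX among others, in 9.23% and 7.43%. The windows are also rich in G and C, with a median of 61.0% in the subunit genes and 58.3% in all genes. Among the genes called lower at 6 h, 7 of 23 windows held the NRF1 motif, 3 the ETS motif, 1 the YY1 motif, 1 the ERR motif and 4 the E-box. Among those not called, 9 of 41 windows held the NRF1 motif, 7 the ETS motif, 6 the YY1 motif, 0 the ERR motif and 2 the E-box. The 250 bases before the start are shown for 3 genes that were lower at 6 h and hold different motifs. They are also shown for ATP5F1A, which was not called lower and holds none of the 5. These genes were picked by their motifs and do not stand for their groups. NDUFAB1 and NDUFS6, called lower, hold none of the 5, and SDHA, not called, holds 4 NRF1 motifs. Whether the motifs go with the change was not tested. Capitals mark motif letters, and each sequence runs 5′ to 3′ on the strand of the gene.
UQCR11: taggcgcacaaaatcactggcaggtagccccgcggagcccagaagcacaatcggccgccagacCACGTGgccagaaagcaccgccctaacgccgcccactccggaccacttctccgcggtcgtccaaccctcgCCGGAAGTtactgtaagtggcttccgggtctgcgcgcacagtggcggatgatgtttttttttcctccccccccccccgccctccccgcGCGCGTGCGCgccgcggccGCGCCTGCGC
SDHD: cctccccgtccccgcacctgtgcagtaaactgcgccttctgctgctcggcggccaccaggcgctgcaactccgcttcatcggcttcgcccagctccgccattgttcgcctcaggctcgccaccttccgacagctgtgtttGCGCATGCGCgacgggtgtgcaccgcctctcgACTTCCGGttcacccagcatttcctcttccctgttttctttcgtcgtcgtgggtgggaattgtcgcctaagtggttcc
ATP5PB: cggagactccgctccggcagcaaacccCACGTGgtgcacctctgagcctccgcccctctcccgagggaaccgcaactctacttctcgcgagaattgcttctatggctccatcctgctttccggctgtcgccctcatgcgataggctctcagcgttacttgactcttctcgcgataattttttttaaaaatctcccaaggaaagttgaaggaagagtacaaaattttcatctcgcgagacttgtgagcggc
ATP5F1A: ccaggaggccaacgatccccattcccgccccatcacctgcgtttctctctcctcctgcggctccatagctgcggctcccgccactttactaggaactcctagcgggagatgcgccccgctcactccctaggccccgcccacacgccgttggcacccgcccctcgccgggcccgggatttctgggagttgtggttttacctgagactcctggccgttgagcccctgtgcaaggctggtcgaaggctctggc
The UQCR11 window (chr19:1605463-1605712, minus strand) holds an E-box, an ETS motif and 2 NRF1 motifs, the last of them ending at the start. The SDHD window (chr11:112086623-112086872, plus strand) holds an NRF1 motif and, on the other strand, an ETS motif; its ERR motif lies after the start and is not shown. The ATP5PB window (chr1:111449214-111449463, plus strand) holds an E-box. The ATP5F1A window (chr18:46104228-46104477, minus strand) shows no capitals. Gene starts in RefSeq differ from those of the annotation used for counting, and a match of letters is not a measured binding site.

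The machinery around the subunits was examined through lists of other respiratory genes, of which SCO2 and SLC25A6 were not tested. Of 51 tested assembly factors, which insert cofactors and join subunits, 23 (45.1%) were lower and 3 (5.88%) were higher at 6 h, with a median log2 change of −0.26. Here and for the lists that follow, the background is the 18.6% lower and 18.0% higher of all tested genes, or 26.8% and 23.9% at a mean of at least 10 CPM. Those of complex I had 10 of 17 (58.8%) lower and 1 higher. NDUFAF8 had 29.98 and 31.4 CPM at 6 h, against 47.9 and 47.8 CPM in DMSO (−0.64 ± 0.11 SE, adjusted p = 8.3e-06), and NUBPL, which delivers iron-sulfur clusters, had 10.5 and 9.72 CPM at 6 h, against 17.3 and 18.7 CPM in DMSO (−0.83 ± 0.16, adjusted p = 3.7e-05). NDUFAF7, a methyltransferase, was lower at 6 h (−0.92 ± 0.16, adjusted p = 7.7e-06) and already at 2 h (−0.77, adjusted p = 0.00030). Those of complex III had 4 of 6 (66.7%) lower. LYRM7, which stabilises the Rieske protein before its insertion, had 41.2 and 41.7 CPM at 6 h, against 69.1 and 74.8 CPM in DMSO (−0.80 ± 0.10, adjusted p = 5.0e-09), and was lower at 2 h as well (−0.54, adjusted p = 3.8e-05). UQCC3 (−0.74 ± 0.19) and UQCC2 (−0.43 ± 0.14) were also lower at 6 h (adjusted p = 0.0012 and 0.012), UQCC2 losing its call without 6 h replicate 1 (−0.35, adjusted p = 0.133) or DMSO replicate 1 (−0.38, adjusted p = 0.0509).

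Those of complex IV had 8 of 20 (40.0%) lower and 1 higher. COA4 had 55.8 and 59.3 CPM at 6 h, against 94.2 and 94.7 CPM in DMSO (−0.71 ± 0.09, adjusted p = 3.6e-09). LRPPRC, which stabilises mitochondrial mRNAs, was lower by −0.38 ± 0.06 (adjusted p = 3.6e-07) and COA7 by −0.35 ± 0.08 (adjusted p = 0.00034). Of the 4 assembly factors of complex II, SDHAF4 was higher (0.79 ± 0.22, adjusted p = 0.0030; 0.62 and 0.0824 without 6 h replicate 1), and of the 4 of complex V, ATPAF1 was lower (−0.20 ± 0.08, adjusted p = 0.032), a call lost without each of the 4 treated libraries in turn (−0.25 to −0.15, adjusted p = 0.06 to 0.33).

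Among 13 genes of cytochrome c and coenzyme Q synthesis, 4 (30.8%) were lower and 2 (15.4%) higher at 6 h, shares near the background, with a median log2 change of −0.24. CYCS, cytochrome c itself, had 331 and 329 CPM at 6 h, against 545 and 545 CPM in DMSO, and so was lower by −0.72 ± 0.06 (adjusted p = 2.3e-14). PDSS1, which makes the side chain of coenzyme Q, had 16.6 and 15.7 CPM at 6 h, against 29.9 and 29.4 CPM in DMSO (−0.87 ± 0.13, adjusted p = 4.8e-07). COQ8B, a kinase-like protein of coenzyme Q synthesis, was higher, with 9.43 and 9.62 CPM at 6 h, against 5.10 and 3.31 CPM in DMSO (1.19 ± 0.24, adjusted p = 7.5e-05).

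Of 15 regulators of respiratory genes and of mtDNA expression, 7 (46.7%) were lower and 1 (6.67%) higher at 6 h, with a median log2 change of −0.30. TWNK, the mtDNA helicase, had 35.2 and 33.2 CPM at 6 h, against 74.2 and 75.8 CPM in DMSO (−1.13 ± 0.10, adjusted p = 4.6e-13), and was lower at 2 h as well (−0.54, adjusted p = 3.2e-05). PPARGC1B, a coactivator of mitochondrial genes, had 33.0 and 32.9 CPM at 6 h, against 65.2 and 61.3 CPM in DMSO (−0.94 ± 0.10, adjusted p = 1.8e-10). PPRC1, a relative of it, had 85.5 and 87.7 CPM at 6 h, against 137 and 135 CPM in DMSO (−0.65 ± 0.08, adjusted p = 1.2e-09). The others lower, chosen to be named after their values were seen, were TFB2M (−0.92), GABPB1 (−0.76), TFAM (−0.37) and NRF1 (−0.36). The 1 called higher, PPARGC1A, is also named after its values were seen: it had 23 counts over the 6 h libraries and 2 over the DMSO libraries, a ratio of 11.5 after scaling by library size, with a 95% counting interval of 2.85 to 101, and its call was lost when any 1 of the 6 libraries was left out.

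Of the 13 mtDNA-encoded subunits, 4 (30.8%) were lower and 2 (15.4%) higher at 6 h, with a median log2 change of −0.05. Against 26.8% and 23.9% of all tested genes averaging 10 CPM or more, these shares were near the background. MT-CYB, of complex III, had 1747 and 1728 CPM at 6 h, against 1924 and 2227 CPM in DMSO (−0.26 ± 0.05, adjusted p = 6.2e-05), and MT-ND1, of complex I, had 1672 and 1708 CPM at 6 h, against 1817 and 2212 CPM in DMSO (−0.25 ± 0.05, adjusted p = 0.00019). MT-ND4 had 8146 and 8271 CPM at 6 h, against 6385 and 8029 CPM in DMSO (0.19 ± 0.05, adjusted p = 0.0024), a change of 0.03 without DMSO replicate 1 (adjusted p = 0.299). In that library all mtDNA genes together took 4.43% of counts, where the other 5 libraries had between 4.96% and 5.24%; its part in these changes was not tested beyond leaving it out.

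Of 18 genes of the TCA cycle and pyruvate dehydrogenase, 2 (11.1%) were lower and 1 (5.56%) higher at 6 h, with a median log2 change of 0.01. Both shares lay below those of all tested genes, 18.6% and 18.0%. DLAT, of pyruvate dehydrogenase, had 127 and 128 CPM at 6 h, against 157 and 170 CPM in DMSO (−0.36 ± 0.07, adjusted p = 6.1e-05), and MDH2, malate dehydrogenase, was lower by −0.19 ± 0.06 (adjusted p = 0.0095; −0.14 and 0.23 without 6 h replicate 1). OGDH, of the 2-oxoglutarate dehydrogenase complex, had 341 and 351 CPM at 6 h, against 284 and 278 CPM in DMSO (0.30 ± 0.06, adjusted p = 8.1e-05). Of 6 tested genes of ADP/ATP and phosphate exchange, the outer membrane channels VDAC1 (−0.22 ± 0.06), VDAC2 (−0.29 ± 0.07) and VDAC3 (−0.19 ± 0.07) were lower (adjusted p = 0.0019, 0.0010 and 0.018), and each lost the call without 6 h replicate 2 (−0.20, −0.25 and −0.22, adjusted p = 0.0632, 0.0566 and 0.0826), VDAC3 also without 6 h replicate 1 (−0.17, adjusted p = 0.21).

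**Figure D4:**
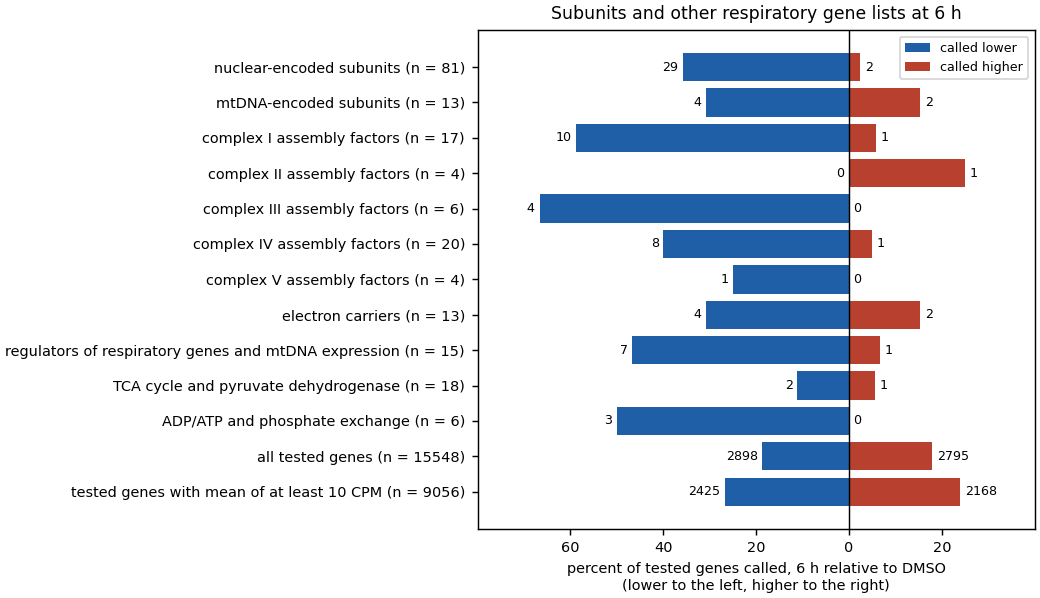
Percent of the tested genes of each list called lower (left) and higher (right) at 6 h relative to DMSO, with the number of genes beside each bar and all tested genes at the bottom. The nuclear-encoded subunits have 29 lower and 2 higher of 81, and the TCA cycle list has 2 lower and 1 higher of 18.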

How the data were processed

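The deposited values are counts of fragments per gene for 6 paired-end RNA-seq libraries. Per the file headers, the authors counted with featureCounts 2.0.0 against GENCODE 34, ignoring strand, with a mapping quality of at least 20, both ends mapped and no fragment assigned to more than 1 gene; trimming with Trimmomatic and alignment to hg38 with STAR are named in the submitters' processing notes, with no version. The deposited table also gives each gene's exonic length in bases (another unit), per the file headers. GENCODE 29 supplied gene types and GC content, and 60704 of 60728 symbols were found. Since strand was ignored, reads of a gene and its antisense partner cannot be told apart.

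The counts were tested with edgeR 4.0.16 in R 4.3.3: filterByExpr, TMM factors (0.977 to 1.025), 1 quasi-likelihood fit of 3 group means over all 6 libraries, and Benjamini-Hochberg adjustment over 15548 genes (common dispersion 0.00597). CPM values are TMM-scaled, except at the limit of 1 CPM, which uses total counts. Log2 changes are given with the SE that the F statistic implies. The subunit genes, the lists of other respiratory genes and the tests were chosen with earlier results of these data known. Genes given with values were chosen by rule: the 3 smallest adjusted p values of each complex at 6 h and 2 at 2 h, called genes against the majority, SDHA to SDHD, CYC1, isoform families, and the extremes of level. From other lists, the 3 smallest adjusted p values at 6 h were taken. For many of these genes the 2 h libraries are left out, and for some no library values are given. NDUFA8, NDUFA1, UQCRFS1, UQCR10, ATP5IF1, ATP5F1C, NDUFV3 and the genes outside these rules listed without library values were added after their values were seen. Some genes that these rules take in are not reported here, though they stay in the counts.

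Alternatives were other scalings, filters and thresholds, DESeq2 1.42.0, limma 3.58.1 voom, a replicate block, a correction for length and GC content (mgcv 1.9.3), fits of only the groups compared, and leaving out each library. The procedure was tested on simulated data. Counting intervals cover counting error only. Figures used Python 3.11.15 and matplotlib 3.10.9.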

Additional observations from a re-analysis of the deposited data

Results flagged for a closer look

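For 17 subunit genes the level after 6 h of WNK463 differed from that after 2 h, by edgeR's test of 6 h against 2 h. It is also the test of the difference between the changes from DMSO, since both times are set against the same DMSO libraries. Time with WNK463 and time in culture cannot be told apart here. Of the 81 genes 19.8% were lower and 1.23% higher, where 13.1% and 11.1% of all tested genes were, or 20.7% and 15.5% of those with a mean of at least 10 CPM, and 5 of the 17 calls held whichever library was left out. How many calls among all tested genes held in this way was not determined. In complex I the log2 change of 6 h over 2 h was −0.34 for NDUFAB1, −0.34 for NDUFS6, −0.37 for NDUFS3, −0.28 for NDUFS5 and −0.24 for NDUFB9, and 0.34 for NDUFV3. In complex II it was −0.23 for SDHD. In complex III it was −0.38 for CYC1, −0.45 for UQCR11 and −0.30 for UQCRFS1. In complex IV it was −0.26 for COX5A and −0.29 for COX7B. In complex V it was −0.50 for ATP5MC1, −0.41 for ATP5F1D, −0.32 for ATP5PB, −0.25 for ATP5MC2 and −0.20 for ATP5F1C. Neither ATP5F1C nor NDUFV3 was called at 6 h against DMSO, where their log2 changes were −0.15 and 0.25.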

How the results depend on the processing

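No gene called in a comparison changed direction under any alternative; the 2 h median, near 0, changed sign. At 6 h against DMSO, 2 higher and 29 lower subunit genes became 1 and 18 at an adjusted p under 0.01, and 1 and 19 among the 51 genes that share at most 10% of their exonic length with another gene; leaving out each library gave 1 to 3 higher, 14 to 38 lower and a median log2 change of −0.26 to −0.13. Of all tested genes, 13.1% were called higher and 13.4% lower at an adjusted p under 0.01, against 18.0% and 18.6% under 0.05. Both shares also fell whichever library was left out, so the calls over all genes moved too. At 2 h against DMSO, the 1 higher gene became 0 with scaling by library size alone, with no filter, with a filter at a mean of 1 CPM, with the replicate block, with only the 2 groups compared and at an adjusted p under 0.01, and 2 with the length and GC correction. Leaving out each library gave 0 to 4 higher, 0 to 8 lower and a median of −0.06 to 0.04 there. The share of all tested genes called lower at 2 h fell whichever library was left out. The share called higher fell in each case except without DMSO replicate 2. At 6 h against 2 h, the 1 higher gene became 2 with library size alone, voom, the replicate block, only the 2 groups compared or an adjusted p under 0.10, and 0 with no filter, DESeq2 or an adjusted p under 0.01. Of all tested genes, 11.3% to 15.5% were called higher under the settings that gave 2, and 5.21% to 9.69% under those that gave 0. The 16 lower genes became 29 with the length and GC correction, 28 with only the 2 groups compared and 25 at an adjusted p under 0.10. The shares of all tested genes called lower were then 17.6%, 17% and 15.8%, against the 13.1% given above. The median became −0.0855 with library size alone (all tested genes 0.08), and leaving out each library gave a median of −0.18 to −0.13. Beyond the larger or smaller thresholds and gene sets, the cause was not tested. The labels state no pairing, though count columns carry A for replicate 1 and B for replicate 2. Replicate differences were hardly correlated between groups (−0.01, −0.04 and −0.02), which cannot show whether libraries were paired. With the replicate block 30 genes were lower and 2 higher at 6 h against DMSO (all tested genes 18.5% and 18.1%). At 2 h 1 was lower and 0 higher (8.45% and 8.64%), and at 6 h against 2 h 15 were lower and 2 higher (13.2% and 11.3%). With 2 libraries a group, the 95% interval of the 6 h log2 change lay within −0.5 and 0.5 for 52 of the 81 genes.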
